A study of Homo sapiens with 8 samples.

Results

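Transcripts of amino acid transporters, carriers of the solute carrier (SLC) family, were followed in A549 human lung cancer cells exposed to EEDS, the ethanol extract of Descurainia sophia seeds, or to helveticoside, a cardiac glycoside purified from it. The set was given as 10 gene symbols (SLC1A3, SLC1A4, SLC1A5, SLC3A2, SLC6A9, SLC7A1, SLC7A5, SLC38A1, SLC38A2 and SLC43A1), looked up through the transcript accession of each array probe. Of the 10 genes, 9 were matched to 12 probes, among 19046 genes measured in all, and SLC3A2, the heavy chain that partners several of these carriers, was not analyzed here. The study sought the active component of EEDS through gene expression, and used 8 single-dye Agilent whole genome arrays in 2 series.

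The EEDS series held a vehicle control and 1.25, 5 and 20 μg/mL EEDS, and the helveticoside series a vehicle control of its own and 3.75, 15 and 60 nM helveticoside. All 8 arrays carried RNA of the same established line, A549, derived from a human lung carcinoma, with an RNA integrity number above 7. RNA of 3 cultures was combined for every array, and with 1 array per dose there was no replicate and no test of a single dose. The exposure was 24 h in the study's methods and 48 h in the sample labels. The 3 doses of a series shared 1 vehicle array, the 2 agents were given on different dose scales, and agent and series cannot be told apart.

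Amino acid carriers differ in what they move and in what drives them. SLC1A5, SLC38A1 and SLC38A2 move glutamine and other neutral amino acids with sodium, SLC1A4 exchanges alanine, serine and cysteine, SLC7A1 brings in arginine and lysine, SLC7A5 exchanges glutamine for leucine and other large neutral amino acids, SLC43A1 lets large neutral amino acids through, SLC6A9 takes up glycine and SLC1A3 takes up glutamate. In many cells, shortage of amino acids or unfolded protein raises the translation of the transcription factor ATF4, which binds C/EBP-ATF elements and switches on amino acid carriers, amino acid synthesis enzymes and its own feedback regulators. Leucine and arginine inside the cell are in turn sensed by the mTORC1 kinase complex on lysosomes. Cardiac glycosides bind the sodium pump, which builds the sodium gradient that SLC1, SLC6 and SLC38 carriers use.

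Promoter sequences are shown because most of these genes were highest at the same dose step, and because both motifs below are known sites of transcription factors that act on amino acid genes. The 250 bases before each start site were taken from RefSeq on GRCh38.p14 for 19 start sites of all 10 genes and searched on both strands. The search used the letters TGATGNAA, the core of a C/EBP-ATF element, and CACGTG, an E-box, which do not overlap in any of these promoters. TGATGNAA was found before start sites of 2 genes, SLC1A3 and SLC1A5, and is held by 3.14% of all 35116 promoters and by 3.89% of 27305 genes. Each window below is 30 bases on the strand of the gene, with the motif in capitals. The SLC1A3 window lies on the plus strand at chr5:36596357-36596386, and its motif ends 213 bases before the start. The SLC1A5 window lies on the minus strand at chr19:46784893-46784922, and its motif ends 90 bases before the most downstream of the gene's start sites.
SLC1A3 window: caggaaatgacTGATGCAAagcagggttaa
SLC1A5 window, downstream start: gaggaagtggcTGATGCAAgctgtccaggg

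CACGTG was found before start sites of 3 genes, SLC7A5, SLC43A1 and SLC1A5, against 6.34% of all promoters and 7.73% of genes. The SLC1A5 window lies on the minus strand at chr19:46787326-46787355, and its motif ends 45 bases before the middle start site. The promoters of SLC7A5 and SLC43A1, both carriers of leucine, are shown whole over the 250 bases. That of SLC7A5 lies on the minus strand at chr16:87869508-87869757, with the motif ending 125 bases before the start. That of SLC43A1 lies on the minus strand at chr11:57515703-57515952, with the motif ending 107 bases before the start.
SLC1A5 window, middle start: ggcgggagtggtCACGTGgacaggacgggg
SLC7A5 promoter: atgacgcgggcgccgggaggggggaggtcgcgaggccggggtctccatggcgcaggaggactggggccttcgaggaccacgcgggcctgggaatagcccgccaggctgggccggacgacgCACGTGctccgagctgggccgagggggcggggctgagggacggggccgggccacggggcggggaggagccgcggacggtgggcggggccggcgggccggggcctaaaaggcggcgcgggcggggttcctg
SLC43A1 promoter: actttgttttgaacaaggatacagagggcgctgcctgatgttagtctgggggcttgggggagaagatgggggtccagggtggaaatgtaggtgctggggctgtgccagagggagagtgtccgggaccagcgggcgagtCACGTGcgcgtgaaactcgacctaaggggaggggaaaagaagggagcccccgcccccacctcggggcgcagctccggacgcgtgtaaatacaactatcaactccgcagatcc

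These letters are a description of the windows and say nothing about the binding of a factor in A549 cells. The remaining 6 genes (SLC1A4, SLC3A2, SLC6A9, SLC7A1, SLC38A1 and SLC38A2) held neither motif in these windows. SLC38A1 and SLC38A2, both system A carriers, are neighbors on chromosome 12 with 0 protein-coding genes of the RefSeq table between them.

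Values below are log2 signals, the background-subtracted brightness of a probe after the 8 arrays were brought to a common distribution by quantile normalization. A 2-fold difference is 1 on this scale, and levels of different genes are not compared, since each probe has its own brightness. Median brightness over the 43118 probe spots was 182 to 278 over a median local background of 27 to 34, and no probe spot was saturated. By the scanner software's call, 63.3 to 64.9% of probes were well above background on the EEDS arrays and 54.5 to 59.5% on the helveticoside arrays. The epithelial markers of A549 cells (KRT8, KRT18, KRT19, EPCAM and CDH1) were well above background on all 8 arrays, whereas 4 of 5 alveolar type II markers were so on none and SFTPC on 4, so the defining genes of that lung cell were at or near background. Among the markers of leukocytes, endothelium and fibroblasts, PTPRC, CD14, CDH5 and COL1A1 were well above background on all arrays. By limma, CD14 was lower at the middle step than at the vehicle by -1.68 (standard error 0.35, adjusted p = 0.0341). Of the 5 epithelial markers 4 were lower too, where 11.4% of all genes were, CDH1 most, by -1.91 (standard error 0.24, adjusted p = 0.0156). The part of these shifts in the results was not tested. All arrays carried RNA of the same cell line, so these markers do not measure a mixture of cell types. Fewer cells expressing a gene and less of its RNA per cell cannot be told apart in bulk RNA.

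Nearly all of the transporters measured were highest at the middle or the top dose of both agents. At the middle dose, 8 of 9 genes (all but SLC1A3) were more than 2-fold above the vehicle in both series, whereas 3.61% of all genes were. The transporters were chosen with earlier results of these data known, so this and later counts describe the set and do not test it. The genes then parted: SLC38A2 was higher still at the top dose, SLC7A1, SLC7A5 and SLC38A1 changed little from the middle to the top dose, and SLC1A4, SLC1A5, SLC6A9 and SLC43A1 were lower at the top than at the middle dose of both agents.

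**Figure D1:**
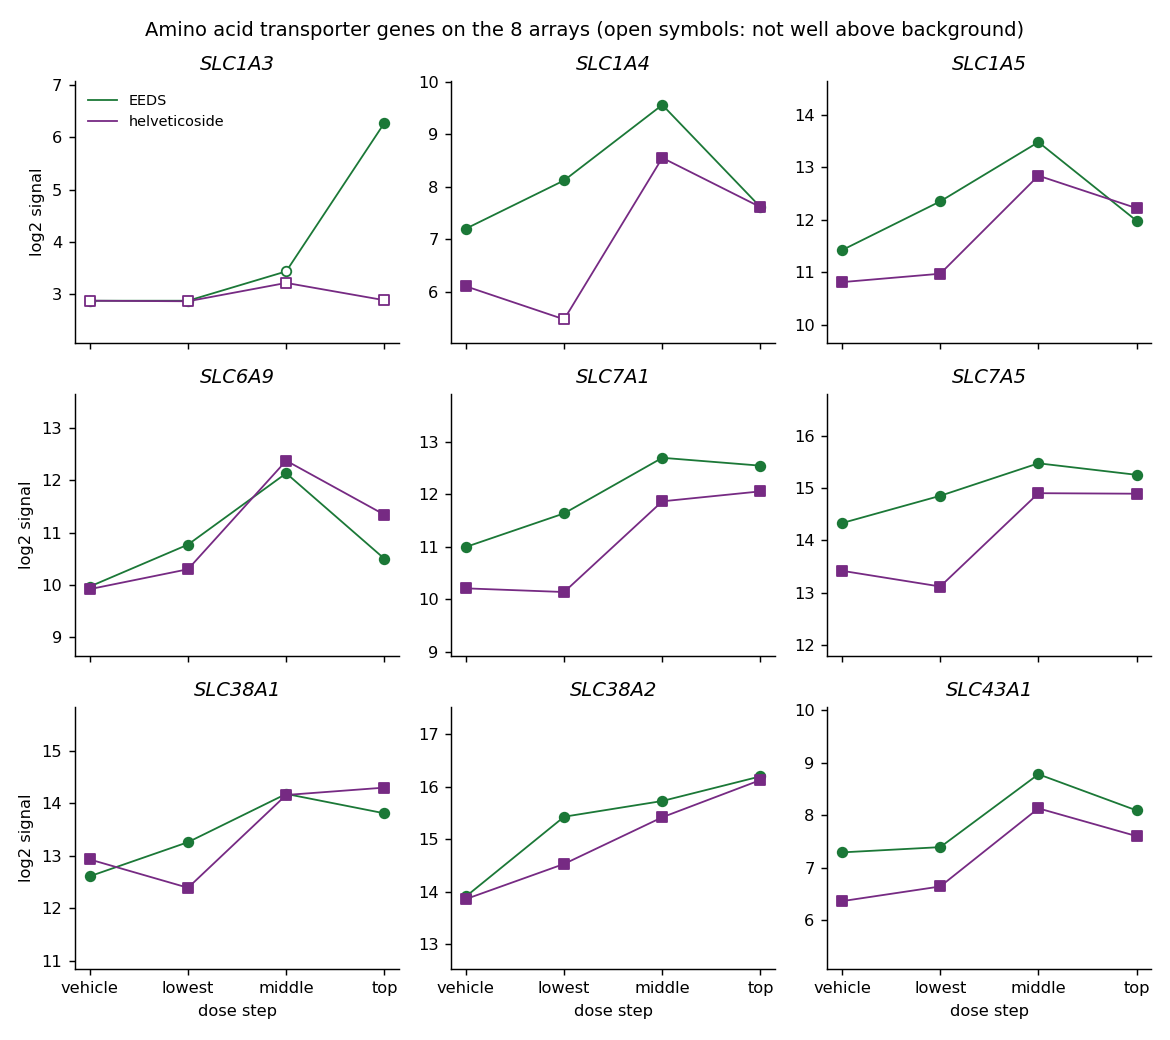
Log2 signal of the 9 transporter genes (vertical axes, all spanning the same width) against the dose step (horizontal axis) for EEDS (green circles) and helveticoside (purple squares), 1 array per point; open symbols were not well above background. Except for SLC1A3, every gene stood more than 2-fold higher at the middle dose than at the vehicle of its series, and SLC38A2 rose at every step.

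SLC1A5, the main sodium-coupled glutamine carrier of many tumor cells, had log2 signals of 11.42 on the EEDS vehicle and 12.35, 13.48 and 11.98 at 1.25, 5 and 20 μg/mL. In the helveticoside series they were 10.81 on the vehicle and 10.97, 12.84 and 12.22 at 3.75, 15 and 60 nM. The middle dose was the highest of its series for both agents, and all 6 treated arrays lay above their own vehicle. SLC1A5 was 4.17-fold above the vehicle at 5 μg/mL EEDS and 4.08-fold at 15 nM helveticoside, but 1.47-fold and 2.66-fold at the top doses.

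SLC1A4, which exchanges alanine, serine and cysteine, gave 7.20, 8.12, 9.56 and 7.61 from the vehicle to 20 μg/mL EEDS. With helveticoside it gave 6.10, 5.47, 8.55 and 7.61, and at 3.75 nM its probe was not well above background, at least 1.10-fold below the vehicle. The middle dose again stood highest for both agents, and the value at 20 μg/mL EEDS lay closer to the vehicle than that at 1.25 μg/mL. Its ratio was 5.13-fold at 5 μg/mL EEDS and 5.50-fold at 15 nM helveticoside, and 1.33-fold and 2.85-fold at the top doses.

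SLC6A9, the glycine carrier GlyT1, showed the same order of doses. Its signals were 9.97, 10.77, 12.13 and 10.50 in the EEDS series. They were 9.92, 10.30, 12.37 and 11.34 in the helveticoside series, so that the vehicles of the 2 series were close together (-0.05 on the log2 scale). This gene was 4.47-fold higher at 5 μg/mL EEDS and 5.46-fold higher at 15 nM helveticoside, and 1.44-fold and 2.68-fold higher at 20 μg/mL and 60 nM. A second, dimmer SLC6A9 probe gave 5.86, 5.88, 7.06 and 5.25 with EEDS, with the lowest value at the top dose in place of the vehicle. With helveticoside it gave 4.32, 4.83, 6.88 and 5.83, the first 2 of these not well above background. Both probes had their highest value at the middle dose of both agents.

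SLC43A1, a facilitated carrier of leucine and other large neutral amino acids, was among the dimmer probes of the set. EEDS arrays gave 7.29, 7.39, 8.78 and 8.09, and helveticoside arrays 6.36, 6.64, 8.13 and 7.6. The lowest dose differed little from the vehicle in either series, and the top dose lay between the vehicle and the middle dose. SLC43A1 was 2.83-fold and 3.43-fold above the vehicle at 5 μg/mL EEDS and 15 nM helveticoside, and 1.74-fold and 2.38-fold above it at the top doses.

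SLC7A5, the light chain of the leucine exchanger LAT1, ran from 14.33 on the EEDS vehicle to 14.85, 15.47 and 15.25 with rising dose. Its helveticoside series ran from 13.42 to 13.12, 14.90 and 14.89, with the lowest dose below the vehicle. The middle and top doses were nearly equal in the helveticoside series and differed by -0.22 in the EEDS series. SLC7A5 was 2.2-fold and 1.89-fold above the vehicle at 5 and 20 μg/mL EEDS, and 2.79-fold and 2.77-fold at 15 and 60 nM helveticoside.

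SLC7A1, the arginine and lysine carrier CAT-1, gave 11.00, 11.64, 12.70 and 12.55 in the EEDS series and 10.21, 10.14, 11.87 and 12.06 in the helveticoside series. In both series the 2 higher doses formed a plateau well above the vehicle and the lowest dose. The ratios were 3.25-fold and 2.93-fold at 5 and 20 μg/mL EEDS, and 3.14-fold and 3.61-fold at 15 and 60 nM helveticoside.

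The neighbors SLC38A1 and SLC38A2 (the carriers SNAT1 and SNAT2) differed from each other in shape. SLC38A1 had log2 signals of 12.61, 13.26, 14.18 and 13.81 with EEDS and of 12.93, 12.39, 14.16 and 14.30 with helveticoside. It was 2.97-fold and 2.30-fold above the vehicle at 5 and 20 μg/mL EEDS, and 2.35-fold and 2.58-fold at 15 and 60 nM helveticoside, after a value 1.45-fold below the vehicle at 3.75 nM. Its second probe also had the middle EEDS dose and the top helveticoside dose highest, with 12.29, 13.17, 13.99 and 13.56, and with 12.23, 11.95, 13.66 and 13.75.

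SLC38A2 had 13.91, 15.43, 15.73 and 16.20 in the EEDS series and 13.86, 14.53, 15.42 and 16.13 in the helveticoside series. It was the only one of the 9 genes with a higher signal at every step of both series. At 1.25 μg/mL EEDS it already stood 2.87-fold above the vehicle, the only one of the 9 genes past 2-fold there, where 4.22% of all genes were. The ratios then were 3.51-fold and 4.86-fold at 5 and 20 μg/mL EEDS, and 1.59-fold, 2.95-fold and 4.79-fold at 3.75, 15 and 60 nM helveticoside. The second SLC38A2 probe was also higher at every step, with 13.74, 15.50, 15.68 and 16.22 in the EEDS series and 13.80, 14.80, 15.35 and 16.00 in the helveticoside series.

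SLC1A3, the glial glutamate carrier EAAT1, was near background on 7 of the 8 arrays. Its signals were 2.88, 2.88 and 3.44 at the vehicle, 1.25 and 5 μg/mL EEDS, and 6.27 at 20 μg/mL, the only array on which the probe was well above background. In the helveticoside series they were 2.88, 2.87, 3.22 and 2.89. At 20 μg/mL EEDS, SLC1A3 exceeded its vehicle by at least 3.28-fold, and no ratio could be given for the other doses.

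Set against all genes, the middle dose stood out more than the top dose with EEDS, while with helveticoside the count was the same at both. More than 2-fold above the vehicle were 8 of 9 transporters at 5 μg/mL EEDS (7.33% of all genes) and the same 8 at 15 nM helveticoside (7.08%). At 20 μg/mL EEDS the count was 4 (SLC1A3, SLC7A1, SLC38A1 and SLC38A2; 13.3% of all genes), and at 60 nM helveticoside it was 8 (10.8%). Past 2-fold at the top dose of both agents were SLC7A1, SLC38A1 and SLC38A2, 3 of 9 (7.38% of all genes). At 3.75 nM helveticoside no transporter passed 2-fold (3.38% of all genes), so none did at the lowest dose of both (0.52%). None of the 9 was more than 2-fold below its vehicle at any dose. Of all genes, 3.66, 8.47 and 14.5% were at the EEDS doses and 4.31, 8.06 and 12.8% at the helveticoside doses. With 9 genes, a count of none is near each of these shares. The median log2 ratio of the 9 genes was 0.65, 1.70 and 0.92 at the EEDS doses and 0.00, 1.65 and 1.42 at the helveticoside doses, beside medians of all genes between -0.04 and 0.02. When arrays were scaled to their 75th percentile instead, the median of all genes moved to -0.36 at 20 μg/mL EEDS and to between -0.21 and 0.14 at the other doses, and the transporter counts at 5 and 20 μg/mL and at 15 and 60 nM were 8, 5, 8 and 7.

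**Figure D2:**
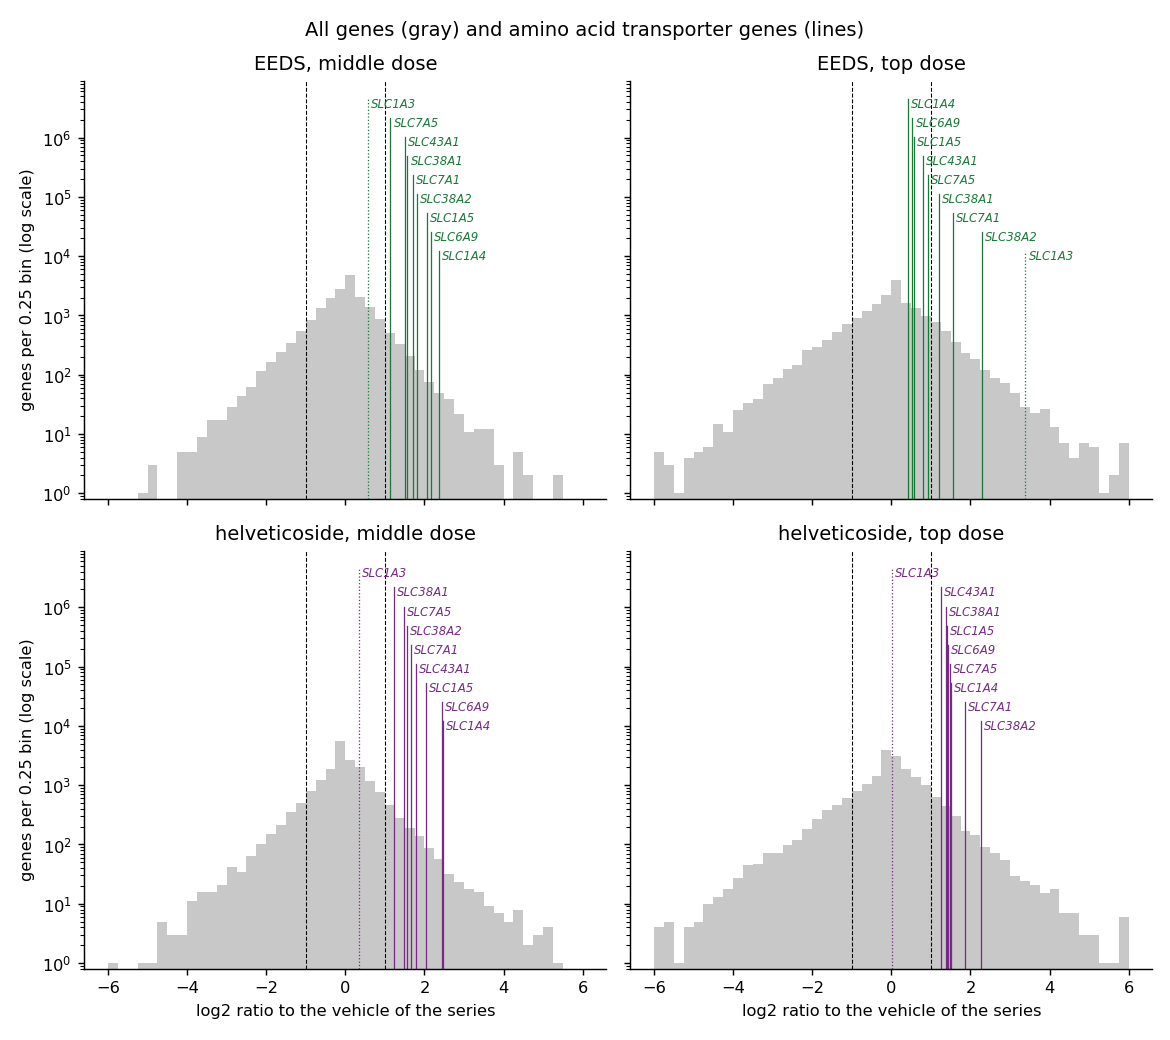
Number of genes per 0.25 of log2 ratio to the vehicle (gray bars, logarithmic vertical axis, ratios beyond 6 in the last bin) at the middle and top doses, with the ratio of each transporter as a vertical line (dotted where a bound replaces the ratio or the probe was near background); dashed lines mark 2-fold. At both middle doses 8 of 9 transporters lie to the right of the upper dashed line, and at 20 μg/mL EEDS 4 of 9 do.

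A drop from the middle to the top dose set the transporters apart from one another. The 5 genes SLC1A4, SLC1A5, SLC6A9, SLC7A5 and SLC43A1 were more than 2-fold above the vehicle at both middle doses and lower at the top dose of both series, as were 148 genes in all (0.777%). The drop of SLC7A5 with helveticoside was 0.00 at 2 decimals, and with a drop of at least 0.5 required in both series 4 transporters and 51 genes in all (0.268%) were left. From the middle to the top dose, SLC1A4 differed by -1.94 with EEDS and -0.94 with helveticoside, SLC6A9 by -1.62 and -1.03, SLC1A5 by -1.50 and -0.62, and SLC43A1 by -0.69 and -0.53. In the other direction, SLC38A2 differed by 0.47 and 0.70. SLC38A1 differed by -0.38 and 0.14 and SLC7A1 by -0.15 and 0.20, with opposite signs for the 2 agents. These signs held under each of 7 or 8 processing settings for these 7 genes.

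**Figure D3:**
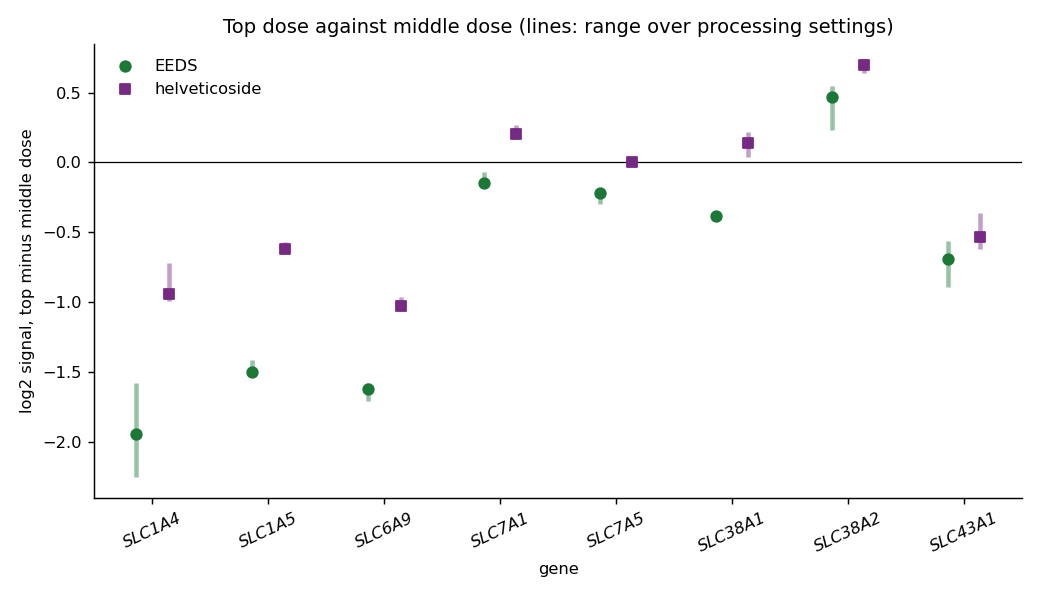
Log2 signal at the top dose minus that at the middle dose (vertical axis) of 8 transporters, for EEDS (green circles) and helveticoside (purple squares); pale lines span the values over the processing settings. SLC1A4, SLC1A5, SLC6A9 and SLC43A1 lie below 0 in both series and SLC38A2 above 0 in both.

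Dose trends were tested with limma, with a straight line over the dose steps of each series and a spread estimated from all 8 arrays. SLC38A2 was dose-dependently up-regulated by both agents, by 0.72 per step of EEDS (standard error 0.12, adjusted p = 0.0229) and by 0.77 per step of helveticoside (standard error 0.12, adjusted p = 0.0253). It was the only one of the 9 transporters called for either agent, where 7.27% of all genes rose with EEDS and 5.48% with helveticoside. None fell, and of all genes 7.85% did with EEDS and 5.8% with helveticoside. With 9 genes, a count of none is near these shares. SLC7A1 had slopes of 0.57 and 0.73 (adjusted p = 0.0901 and 0.0602 by limma), and SLC7A5 of 0.34 and 0.62 (adjusted p = 0.279 and 0.0951). The slopes of SLC1A4, SLC1A5 and SLC6A9, whose signals went up and then down, were between 0.27 and 0.76, with standard errors of 0.33 to 0.46.

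The EEDS call of SLC38A2 was lost without the EEDS vehicle, the 20 μg/mL or the 15 nM helveticoside array, with slopes of 0.38, 0.91 and 0.72. The helveticoside call was lost without 5 μg/mL EEDS or any 1 of the 4 helveticoside arrays, with slopes of 0.76 to 0.80.

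Since a straight line cannot follow a peak, a fit with a level for each dose step shared by both series was added. This choice was made after the values were seen. Both middle doses stood together as a pair, and likewise the vehicles, the lowest doses and the top doses. The spread in this fit is how far the 2 agents differ at a step, not the spread of replicates of a dose. Steps were paired by their order and not by the potency of the agents. At the middle step, 5 of 9 transporters were higher than at the vehicle by limma, where 10.7% of all genes were, and none was lower, where 11.4% were. SLC6A9 was higher by 2.31 (standard error 0.32, adjusted p = 0.0171), and the adjusted p over 16 alternatives ran from 0.00084 to 0.135. SLC1A5 was higher by 2.05 (standard error 0.38, adjusted p = 0.0282), with a range of 0.00208 to 0.172. SLC38A2 was higher by 1.69 (standard error 0.23, adjusted p = 0.0167), with a range of 0.000819 to 0.135. SLC7A1 was higher by 1.68 (standard error 0.25, adjusted p = 0.0189; range 0.00116 to 0.141), and SLC43A1 by 1.64 (standard error 0.14, adjusted p = 0.0135; range 0.000702 to 0.128). Just past the threshold of 0.05 stood SLC38A1 with 1.4 (adjusted p = 0.0540), SLC1A4 with 2.41 (0.0598) and SLC7A5 with 1.31 (0.0615). None of the 9 was called at the middle step without the 5 μg/mL, the 15 nM or either vehicle array, which leaves a level with 1 array that is assumed to vary like the others, and 8 were called without the 1.25 μg/mL or the 3.75 nM array.

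At the top step, 4 transporters were higher than at the vehicle, where 18.4% of all genes were, and none was lower, where 19.8% were. SLC38A2 was higher by 2.27 (standard error 0.23, adjusted p = 0.00331), and this call held without any 1 of the 8 arrays, with an adjusted p of at most 0.0274. SLC7A1 was higher by 1.70 (standard error 0.25, adjusted p = 0.0080), SLC38A1 by 1.28 (standard error 0.35, adjusted p = 0.0462) and SLC43A1 by 1.02 (standard error 0.14, adjusted p = 0.00708). The count was 2 without the EEDS vehicle. It lay between 3 and 5 without any other array.

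Between the top and the middle step, none of the 9 passed the adjusted threshold by limma. Of all genes, 4.65% rose and 5.36% fell, and with 9 genes a count of none is near these shares. In this fit SLC6A9 differed by -1.33 (standard error 0.32, adjusted p = 0.0722) and SLC43A1 by -0.61 (standard error 0.14, adjusted p = 0.0680). SLC1A5 differed by -1.06 (standard error 0.38, adjusted p = 0.159) and SLC1A4 by -1.44 (standard error 0.63, adjusted p = 0.225). The pairs of drops above therefore stand as values with the same sign in both series.

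The agents were compared through the difference of their slopes, which shares the step and not the dose. No gene passed the adjusted threshold by limma (0% of 19046 genes), and 525 genes (2.76%) had an unadjusted p under 0.05. Among the transporters only SLC1A3 had one, and since it was near background on 7 of the 8 arrays its slopes rest on values at the floor and on 1 array. For the other 8 genes the differences were between 0.05 and 0.49, with standard errors of 0.17 to 0.65. At the top doses, SLC1A4, SLC1A5, SLC6A9, SLC7A5 and SLC43A1 were past 2-fold of their own vehicle with helveticoside and not with EEDS. Their signals at 20 μg/mL EEDS and 60 nM helveticoside were 7.61 and 7.61, 11.98 and 12.22, 10.5 and 11.34, 15.25 and 14.89, and 8.09 and 7.6. This split depended on the vehicle used, as given below, and was not tested for single doses. Agent and series cannot be told apart here.

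The vehicle arrays of the 2 series were not alike for these genes. SLC1A4 was more than 2-fold lower on the helveticoside vehicle, by -1.10 (4.64% of all genes were), and SLC43A1, SLC7A5, SLC7A1 and SLC1A5 were lower by -0.93, -0.91, -0.79 and -0.61. SLC38A1 was 0.32 higher, no transporter was more than 2-fold higher (5.76% of all genes were), and SLC6A9 and SLC38A2 differed by -0.05 each. With the other series' vehicle as the reference, the count past 2-fold was 8 at 5 μg/mL and 7 at 20 μg/mL EEDS, and 5 at 15 nM and 4 at 60 nM helveticoside.

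Other amino acid carriers were spread to both sides of the vehicle. Of 40 other transporters of the SLC1, SLC3, SLC6, SLC7, SLC16, SLC36, SLC38 and SLC43 families and their like, 15 were well above background on all arrays and 14 on none. Their median log2 ratios were -0.06 and -0.07 at 5 and 20 μg/mL EEDS, and -0.04 and -0.01 at 15 and 60 nM helveticoside, and over the 15 genes well above background they were -0.24, -0.24, 0.04 and -0.20. At the middle dose, 4 of the 40 (SLC6A6, SLC6A15, SLC7A6 and SLC36A4) were more than 2-fold higher in both series (3.61% of all genes). At the top doses more of the 40 were past 2-fold below the vehicle than above it, 10 against 5 with EEDS (14.5 and 13.3% of all genes) and 11 against 6 with helveticoside (12.8 and 10.8%). At the top step, 9 of the 40 fell and 4 rose by limma (19.8 and 18.4% of all genes). By the trend test, 1 rose and 3 fell with EEDS (7.27 and 7.85% of all genes), and 1 rose and 4 fell with helveticoside (5.48 and 5.8%).

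SLC7A6, the light chain of the exchanger y+LAT2, rose by 0.89 per step of EEDS (standard error 0.07, adjusted p = 0.0129 by limma) and by 0.90 per step of helveticoside (standard error 0.07, adjusted p = 0.0165). Its signals were 4.69, 5.66, 6.44 and 7.42, and 4.16, 5.07, 5.99 and 6.85, higher at each dose of both series. The probe was well above background on 6 of the 8 arrays, and with helveticoside, where its vehicle was not, SLC7A6 was at least 2.46-fold higher at 60 nM. SLC3A1, the heavy chain of the cystine carrier of kidney and gut, fell with both agents, from 9.45 to 6.70 and from 9.60 to 6.36, by -0.89 and -1.12 per step (standard error 0.11 each, adjusted p = 0.0144 and 0.0165). SLC38A10 fell by -0.87 and -0.70 per step (standard error 0.13 each, adjusted p = 0.0190 and 0.0333), from 14.13 to 11.46 and from 14.11 to 12.12. The carriers SLC36A4 and SLC36A1, both of the SLC36 family, were higher at the top step by 1.32 and 1.14 (adjusted p = 0.00673 and 0.00545).

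Genes of the ATF4 response to amino acid shortage were measured for comparison, as 20 of 21 listed. The list holds ATF4 itself and the kinase genes EIF2AK4 and EIF2AK3 besides genes that answer to ATF4. Their median log2 ratio was 0.88, 1.98 and 0.65 at the EEDS doses and 0.05, 2.09 and 1.20 at the helveticoside doses, beside 0.65, 1.70 and 0.92, and 0.00, 1.65 and 1.42, for the transporters. At the middle dose 13 of the 20 were more than 2-fold higher in both series, as were 687 of all genes (3.61%). Of these 13, 11 were lower at the top dose than at the middle dose of both, as were 148 of all genes (0.777%). At the middle step, 10 were called higher and none lower by limma (10.7 and 11.4% of all genes). The list and the transporter set are both drawn from what is known of this response, so their likeness is not independent of the choice.

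ASNS, which makes asparagine from glutamine and aspartate, had log2 signals of 13.58, 14.95, 17.24 and 16.34 with EEDS and of 13.39, 13.58, 16.68 and 16.44 with helveticoside. It was 12.6-fold above the vehicle at 5 μg/mL EEDS and 9.78-fold at 15 nM helveticoside, and 6.77-fold and 8.28-fold at the top doses (3.47 at the middle step, standard error 0.37, adjusted p = 0.0135). CHAC1, which breaks down glutathione, was highest at the middle dose of both agents, with 8.66, 11.47, 12.23 and 8.45, and with 8.44, 9.38, 12.26 and 10.71. ATF4 itself, which is largely controlled in translation, ran from 15.83 to 16.87 and from 15.68 to 16.17 between the vehicle and the top dose, and was 0.77 higher at the top step (standard error 0.21, adjusted p = 0.0432). Against the middle-dose peak, ATF3, a stress-induced transcription factor, rose at each step of both series by 2.28 and 1.87 per step (standard error 0.23 each, adjusted p = 0.0132 and 0.0185). DDIT4, an inhibitor of mTORC1 signaling, was lower at the top than at the middle step by -2.24 (standard error 0.37, adjusted p = 0.0379), and ATF5 had a mean top-dose log2 ratio of -0.93.

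**Figure D4:**
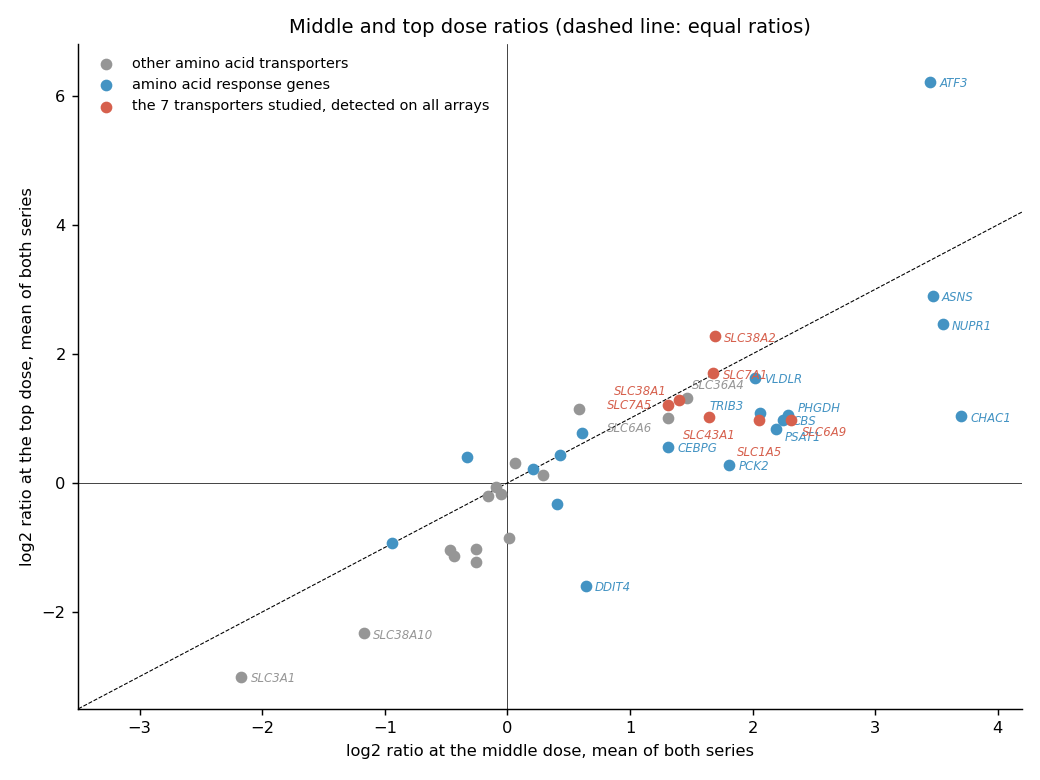
Log2 ratio to the vehicle at the top dose (vertical axis) against that at the middle dose (horizontal axis), each the mean of both series, for 7 of the transporters studied (red), 15 other transporters (gray) and 18 amino acid response genes (blue) that were well above background on all arrays. Below the dashed line of equal ratios lie SLC1A5, SLC6A9 and SLC43A1 with ASNS, CHAC1, NUPR1, PHGDH and PSAT1, and SLC7A5 and SLC38A1 lie just below it. Most of the other transporters lie below it too, among them SLC38A10, SLC7A2, SLC38A6 and SLC3A1. SLC38A2 lies above it, as do ATF3, EIF2AK3 and SLC36A1.

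Of 25 genes of mTORC1, its regulators and its amino acid sensors, 5 rose and 4 fell by the EEDS trend (7.27 and 7.85% of all genes). By the helveticoside trend, 4 rose and 5 fell (5.48 and 5.8%). Called with both agents were LAMTOR3 (0.78 and 0.70 per step, adjusted p = 0.0144 and 0.0198), FNIP1 (0.85 and 0.67, adjusted p = 0.0211 and 0.0408) and SESN1 (0.55 and 0.63, adjusted p = 0.0216 and 0.0219), which rose. LAMTOR3 belongs to the anchor of mTORC1 on lysosomes, SESN1 binds the GATOR2 complex and FNIP1 acts on Rag GTPases. NPRL2 (-0.59 and -0.51, adjusted p = 0.0132 and 0.0168) and NPRL3 (-0.55 and -0.54, adjusted p = 0.0274 and 0.0333), subunits of the mTORC1 inhibitor GATOR1, fell with both agents. The inhibitor TSC2 (-0.37 and -0.34, adjusted p = 0.0322 and 0.0454) and the mTORC1 subunit MLST8 (-0.48 and -0.40, adjusted p = 0.0203 and 0.0343) fell as well.

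Among 18 enzymes of glutamine and glutamate, which use what SLC1A5 and the SLC38 carriers bring in, GOT1, an aspartate aminotransferase, was called with both agents, by 0.48 and 0.39 per step (standard error 0.07 each, adjusted p = 0.0199 and 0.0345). GFPT1, the first enzyme of hexosamine synthesis, had a mean top-dose log2 ratio of 0.92 and rose with EEDS. ASS1 and ASL, which make arginine from citrulline, had the lowest mean top-dose ratios, -1.30 and -1.22, and ASL fell by -0.44 per step of EEDS (adjusted p = 0.0458).

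Subunit genes of the sodium pump were looked at because its gradient drives several of these carriers and because helveticoside is a cardiac glycoside. ATP1B1 rose with both agents, by 0.36 and 0.44 per step (standard error 0.07 each, adjusted p = 0.0269 and 0.0231), from 15.59 to 16.78 and from 15.34 to 16.69. ATP1B3 rose with helveticoside by 0.25 per step (standard error 0.04, adjusted p = 0.0276). ATP1A4 ran from 9.68 to 9.46 and from 8.92 to 9.38 between the vehicle and the top dose, and ATP1B2 from 5.82 to 6.31 and from 6.36 to 6.4.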

How the data were processed

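RNA pooled from 3 cultures per condition was hybridized to 8 single-dye Agilent 44K arrays (1 per dose, samples mapped by agent and dose from the labels). The authors deposited the scanner's intensity per spot (median signal, local background and a background-subtracted processed signal) and a table of processed, linear intensity values that they had quantile-normalized within each series; the software version and the array's genome build are not given in the sources used here. Here, the processed signal was averaged over spots not called outliers, quantile-normalized over the 8 arrays and put on the log2 scale; values under 1.4 times the background were raised to the lowest detected signal of their array. Of 34127 probes, 22 had outlier spots only and were left out, and 24812 were matched to 19056 genes by accession (GRCh38.p14), with the brightest probe used for 4797 genes with several; 19046 genes were fitted. A ratio between 2 arrays is given as a bound where 1 of them was not well above background; fitted slopes and step differences use the values as they stand, also for such genes. Each transporter probe had 1 spot per array, so no error within an array could be given; precision is limited by how few arrays there are.

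Trends used limma 3.58.1 (R 4.3.3; trend and robust estimation on, 4 residual degrees of freedom) with Benjamini-Hochberg adjustment over all genes at 0.05; the step fit, chosen after the values were seen, left 3. P-values rest on the spread of 8 pooled arrays about the fitted lines or levels, with no replicate of a dose. Scripts were tested on simulated data. The transporters and the 11 gene lists were chosen with earlier results of these data known, and the genes named from the other lists are those called for both agents, the 2 highest and 2 lowest at the top dose among genes well above background on all arrays, and sodium pump subunits, some of which are not reported here; others were chosen after their values were seen. Figures used Python 3.11.15 and matplotlib 3.10.9.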

Additional observations from a re-analysis of the deposited data

How the results depend on the processing

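The counts of transporters called depended on the setting. For the EEDS slope (1 gene, and 2879 of all genes), scaling to the 75th percentile gave 3, the scanned signal 2, normexp correction 2, the authors' processed values 3 (4600 of all genes) and a filter for genes well above background on all arrays 2. For the helveticoside slope (1 gene, and 2147 of all genes), each of these 5 settings gave 3. Fits on the 4 arrays of a series alone called 0 transporters and 0 genes for either agent. At the middle step (5 genes), the percentile, the scanned signal, normexp and the authors' values gave 8 each. At the top step (4 genes), the percentile, the scanned signal, normexp and the filter gave 7 each. For the top against the middle step (0 genes, and 1906 of all genes), the percentile gave 2 (2898 of all genes), the scanned signal 3, normexp 2, the authors' values 1 and the filter 3 (3490 of all genes). With the other series' vehicle, 7 transporters were past 2-fold at 20 μg/mL EEDS, 5 at 15 nM and 4 at 60 nM helveticoside, in place of 4, 8 and 8. Why these counts moved was not tested. Without 1 array at a time, the transporters called were 0 to 2 for the EEDS slope, 0 to 1 for helveticoside, 0 to 8 at the middle step, 2 to 5 at the top step and 0 for the top against the middle step. Over all genes the ranges were 0 to 2625, 0 to 1479, 0 to 3672, 4097 to 6925 and 0 to 31. For the 9 transporters, no called value changed its direction under any of these settings; single genes of the other lists were not compared across settings. No paired analysis of replicates was possible because each dose had 1 array. Depth limits SLC1A3, SLC1A4 at 3.75 nM and the dimmer SLC6A9 probe, which were near background.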

Other observations

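Some carriers and enzymes outside the set, chosen after their values were seen, are given as values. SLC7A11, the cystine and glutamate exchanger, was lower at the top step than at the vehicle by -1.02 (standard error 0.23, adjusted p = 0.0279 by limma), with log2 signals of 13.14, 12.89, 13.11 and 12.16 in the EEDS series and 13.39, 12.28, 12.90 and 12.33 in the helveticoside series. SLC1A1, a glutamate carrier of the same family as SLC1A5, was at least 5.29-fold below its vehicle at 5 μg/mL EEDS and at least 2.48-fold at 15 nM helveticoside, where its probe was not well above background. GPT2, which makes alanine from pyruvate and glutamate, had the middle dose highest in both series, with 9.22, 10.33, 11.12 and 8.35, and with 8.88, 8.70, 10.89 and 9.20. PCK2, a mitochondrial gluconeogenic enzyme, was called both ways around the middle step, higher than the vehicle by 1.81 (standard error 0.25, adjusted p = 0.0167) and lower at the top than at the middle step by -1.53 (standard error 0.25, adjusted p = 0.0360). PYCR1, which makes proline, was likewise higher by 0.98 and then lower by -0.61 (standard error 0.08 each, adjusted p = 0.0135 and 0.0286).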
